A study of Mus musculus with 3 samples.

Results

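The endoplasmic reticulum chaperone and unfolded protein response genes described here are 10 of the 30415 gene symbols in the deposited matrices: Hspa5, Hsp90b1, Pdia4, Pdia6, Calr, Xbp1, Atf4, Ddit3, Dnajb9 and Herpud1. They were chosen by name, and all 10 were read in all 3 libraries. Hearts of NOD/SCID mice, a strain without functional T and B lymphocytes, were digested and captured for single-cell sequencing with 10x Genomics 3′ chemistry, which counts unique molecular identifiers (UMIs), each standing for 1 captured transcript. The mice received a checkpoint antibody (pembrolizumab, which binds the receptor PD-1, or atezolizumab, which binds PD-L1, the ligand of PD-1) or a control antibody of matched isotype on days 0 and 7, and hearts were taken on day 14. The groups are the PD1/PEM library, the PDL1/ATZ library and the isotype library, each 1 library of 3 pooled hearts, so no spread between animals can be estimated. Titles and treatment tags disagree: atezolizumab is the tag on PD1/PEM and pembrolizumab the tag on PDL1/ATZ. Titles are used here as names only, and which antibody a library received is not settled by them.

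The endoplasmic reticulum is where secreted and membrane proteins fold, with the help of lumenal chaperones such as BiP (the product of Hspa5), GRP94 (Hsp90b1) and calreticulin (Calr), and of protein disulfide isomerases. When unfolded proteins build up, the sensors PERK, IRE1 and ATF6 raise chaperones and degradation factors through the transcription factors ATF4, spliced XBP1 and cleaved ATF6, and prolonged signalling raises CHOP (Ddit3). In heart muscle the same compartment is continuous with the sarcoplasmic reticulum, and calreticulin and BiP are also calcium-binding proteins. Gene-level 3′ counts do not separate spliced from unspliced Xbp1 and do not measure the translation of Atf4.

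Many targets of this response carry an endoplasmic reticulum stress element in the promoter. The 250 bases before the RefSeq start site (GRCm38.p6, each written 5′ to 3′ on the strand of the gene) were searched on both strands for ERSE, which is CCAAT, 9 bases of any kind and CCACG, and for ERSE-II, which is ATTGG, 1 base of any kind and CCACG. The windows of the 5 genes that hold a match are shown because they carry the element that most directly links these genes to the response, with the matched bases in capitals.
Hspa5, chr2:34771840-34772089, plus strand: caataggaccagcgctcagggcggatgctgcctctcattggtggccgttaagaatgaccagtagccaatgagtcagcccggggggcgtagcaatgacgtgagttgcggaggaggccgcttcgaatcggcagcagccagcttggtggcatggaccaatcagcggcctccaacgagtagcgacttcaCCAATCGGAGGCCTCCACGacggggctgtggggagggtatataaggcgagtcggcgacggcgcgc
Hsp90b1, chr10:86705445-86705694, minus strand: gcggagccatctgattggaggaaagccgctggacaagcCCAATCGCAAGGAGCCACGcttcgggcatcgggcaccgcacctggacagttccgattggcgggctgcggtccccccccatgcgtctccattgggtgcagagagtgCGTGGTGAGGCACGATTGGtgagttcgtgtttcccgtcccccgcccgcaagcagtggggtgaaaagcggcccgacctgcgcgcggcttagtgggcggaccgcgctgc
Pdia6, chr12:17266339-17266588, plus strand: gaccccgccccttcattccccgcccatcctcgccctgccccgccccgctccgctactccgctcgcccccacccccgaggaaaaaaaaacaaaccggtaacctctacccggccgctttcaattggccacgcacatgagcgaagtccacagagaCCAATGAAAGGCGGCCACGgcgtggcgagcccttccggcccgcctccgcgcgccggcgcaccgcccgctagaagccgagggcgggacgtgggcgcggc
Calr, chr8:84846932-84847181, minus strand: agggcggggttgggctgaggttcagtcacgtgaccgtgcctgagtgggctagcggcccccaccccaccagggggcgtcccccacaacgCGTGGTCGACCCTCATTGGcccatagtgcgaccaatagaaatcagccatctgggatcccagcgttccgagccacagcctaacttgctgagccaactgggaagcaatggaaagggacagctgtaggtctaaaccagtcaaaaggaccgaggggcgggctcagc
Herpud1, chr8:94386179-94386428, plus strand: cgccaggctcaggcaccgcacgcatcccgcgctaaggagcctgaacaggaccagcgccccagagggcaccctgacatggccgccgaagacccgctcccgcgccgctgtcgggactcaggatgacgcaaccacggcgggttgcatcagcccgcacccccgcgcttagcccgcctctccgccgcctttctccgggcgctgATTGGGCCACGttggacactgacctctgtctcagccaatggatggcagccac

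ERSE starts 65 bases before the start site in Hspa5 and 98 bases before it in Pdia6. In Hsp90b1 it occurs at 2 places, from 212 bases before the start on the gene's own strand and from 107 bases before it on the opposite strand, and in Calr it lies on the opposite strand from 162 bases before the start. ERSE-II was found in Herpud1 alone among the 10 genes, 52 bases before the start site. Over 32851 RefSeq windows of 300 bases, which add 50 bases after the start, ERSE was in 0.119% and ERSE-II in 0.0365%. Pdia4, Xbp1, Atf4, Ddit3 and Dnajb9 had no match to either. TGACGTGG, the core of the unfolded protein response element, was in none of the 10 windows and in 0.676% of all windows. TGATGNAA, the element that ATF4 and CHOP bind with partners, was in the Herpud1 window from 112 bases before the start, on the opposite strand, and in 3.97% of all windows. A match is a description of these letters and shows no binding in these hearts.

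The PD1/PEM library held 6388 cells and 14766346 UMIs, the PDL1/ATZ library 11599 cells and 15144668 UMIs, and the isotype library 9510 cells and 16677883 UMIs. The PDL1/ATZ library stood apart from both others: mitochondrially encoded genes took 7.74% of its UMIs, against 25.9% in PD1/PEM and 26.0% in isotype, and 2893 symbols were read there alone, while 1942 were read in the other libraries and not there. The 10 cardiomyocyte markers, which include Myh6, Ttn and Ryr2, summed to 2.43% of UMIs in PD1/PEM, 1.28% in PDL1/ATZ and 3.32% in isotype, and the nuclear RNAs Malat1 and Neat1 to 1.97%, 3.41% and 2.02% in the same order. Levels are given in CPM, the UMIs of a gene for each 1000000 UMIs of all genes in the library or class, or in non-mitochondrial CPM, where the UMIs of mitochondrially encoded genes are left out of the total. The 8 immediate early genes of tissue digestion summed to 4930 CPM in PD1/PEM, 3126 in PDL1/ATZ and 3012 in isotype. There were 23 cell barcodes common to PD1/PEM and isotype and 0 common to PDL1/ATZ and either of them. In sums over whole libraries, fewer cells of a type and less RNA per cell cannot be told apart.

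**Figure D1:**
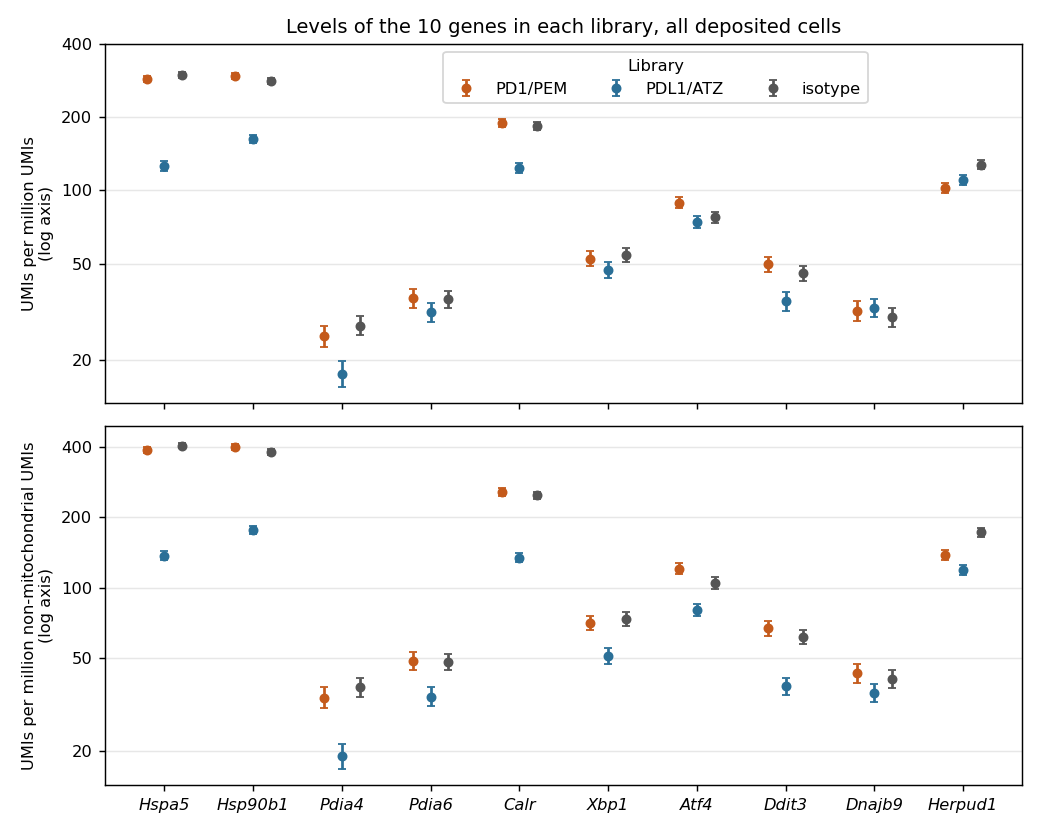
Level of each of the 10 genes in the PD1/PEM, PDL1/ATZ and isotype libraries, on log axes, in CPM (top) and in non-mitochondrial CPM (bottom), with 95% Poisson intervals for counting error. Hspa5, Hsp90b1, Pdia4, Calr and Ddit3 lie lower in PDL1/ATZ than in the other libraries on both scales, with intervals that do not overlap. Pdia6, Xbp1 and Atf4 are also lowest in PDL1/ATZ on both scales, but in CPM their intervals overlap that of another library.

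Between the PD1/PEM and isotype libraries the 10 genes had nearly the same summed level, 1158 CPM in PD1/PEM and 1163 CPM in isotype. None of the 10 was 1.5-fold apart in either direction, where 5.51% of 14748 genes with at least 50 UMIs were 1.5-fold higher and 4.57% were 1.5-fold lower. In cells with few markers of any cell class, Pdia4 and Herpud1 were 1.5-fold lower and none of the 10 was higher, where 11.9% of 5112 genes were lower and 9.7% higher. Only 323 PD1/PEM cells were of this kind. The Pdia4 ratio there rests on 7 and 45 UMIs, with a counting interval (0.240 to 1.41) that holds 1, and that of Herpud1 was 0.406 to 0.953. Atf4 was slightly higher and Herpud1 slightly lower in PD1/PEM. With 1 library a group there is no test, and the 95% intervals that follow cover counting error only.

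Among the chaperones, Hspa5 (chr2:34771970-34777547, plus strand), the lumenal Hsp70 that holds the sensors inactive, had 286 CPM in PD1/PEM and 299 in isotype, a ratio of 0.957 (0.919 to 0.998). Hsp90b1 (chr10:86690209-86705509, minus strand), the lumenal Hsp90, had 295 CPM in PD1/PEM and 282 in isotype, a ratio of 1.05 (1.01 to 1.09). Calr (chr8:84841850-84846934, minus strand), a lectin chaperone and calcium buffer, had 189.9 CPM in PD1/PEM and 184 in isotype, a ratio of 1.03 (0.982 to 1.09). The 3 chaperones thus differed by a few percent, with Hspa5 on the lower and Hsp90b1 on the upper side. Hsp90b1 overlaps the annotated transcripts 1810014B01Rik on the other strand and Gm15344 on its own, and how their reads were divided is not given in the sources used here.

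Both disulfide isomerases had low counts. Pdia4 (chr6:47796141-47813430, minus strand) had 25.1 CPM in PD1/PEM and 27.8 in isotype, a ratio of 0.903 (0.786 to 1.04). Pdia6 (chr12:17266545-17284770, plus strand) had 36.0 CPM in PD1/PEM and 35.7 in isotype, a ratio of 1.01 (0.894 to 1.13). Both intervals hold 1, so no difference was detectable at this depth. Pdia6 overlaps Atp6v1c2 on the other strand, and the strand setting of the counting is not given in the sources used here.

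Among the transcription factors, Atf4 (chr15:80255184-80257541, plus strand), the factor translated when PERK or another eIF2-alpha kinase is active, had 89.1 CPM in PD1/PEM and 77.5 in isotype, a ratio of 1.15 (1.06 to 1.24). Ddit3 (chr10:127290774-127296288, plus strand), its target CHOP, had 49.7 CPM in PD1/PEM and 45.6 in isotype, a ratio of 1.09 (0.984 to 1.21). Xbp1 (chr11:5520659-5525893, plus strand), the substrate of IRE1, had 52.3 CPM in PD1/PEM and 54.4 in isotype, a ratio of 0.961 (0.872 to 1.06). In cells with over 25% mitochondrial UMIs the Atf4 level was 131 non-mitochondrial CPM in PD1/PEM and 108 in isotype, a ratio of 1.20 (1.10 to 1.32). In the other cells it was 100.1 in PD1/PEM and 96.97 in isotype, a ratio of 1.03 (0.893 to 1.19). These 2 intervals overlap, and the difference between them was not tested. Ddit3 overlaps Mars and Gm4189 on the other strand, so its reads cannot be told from theirs unless strand was used.

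Among the targets that act in degradation, Herpud1 (chr8:94386438-94395377, plus strand), a membrane protein of the degradation complex and the gene with ERSE-II above, had 102 CPM in PD1/PEM and 127 in isotype. It was 1.24-fold lower (1.16 to 1.33), the furthest from 1 of the 10, and 15.6% of genes had a lower ratio. In cells over 25% mitochondrial its ratio was 0.813 (0.751 to 0.880), and in the other cells 0.789 (0.696 to 0.893), both from non-mitochondrial CPM. Dnajb9 (chr12:44205559-44210326, minus strand), the cochaperone ERdj4 of BiP, had 32.0 CPM in PD1/PEM and 30.1 in isotype, a ratio of 1.06 (0.935 to 1.21). Herpud1 overlaps the antisense transcript Gm15890. Beside these values, all 10 cardiomyocyte markers were lower and all 8 immediate early genes higher in PD1/PEM than in isotype, and their part in the differences of Atf4 and Herpud1 was not tested.

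Between the PDL1/ATZ and isotype libraries the 10 genes differed to unlike degrees, some by much and others by little. The summed level was 761 CPM in PDL1/ATZ and 1163 in isotype, and 3 of the 10 genes, Hspa5, Hsp90b1 and Pdia4, were at least 1.5-fold lower, where 5.32% of 15496 genes were. None was 1.5-fold higher, where 49.6% of genes were. In cells with few markers of any cell class 3 of the 10, Hspa5, Pdia4 and Ddit3, were lower and none higher. There 6.97% of 7301 genes were lower and 39.5% higher. In those cells Hsp90b1 had a ratio of 0.670, just inside the limit, and the Pdia4 counting interval (0.346 to 1.01) held 1. The median gene had a log2 ratio of 0.58, and the median of the 10 genes was -0.30. Relative to the median gene all 10 were lower, by 0.45 (Dnajb9) to 1.82 (Hspa5) on the log2 scale.

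Hspa5 was furthest apart. It had 126 CPM in PDL1/ATZ and 299 in isotype, 2.37-fold lower (2.25 to 2.50), and 1.59% of genes had a lower ratio. In non-mitochondrial CPM it had 137 in PDL1/ATZ and 404 in isotype, 2.96-fold lower (2.80 to 3.12).
Hsp90b1 had 163 CPM in PDL1/ATZ and 282 in isotype, 1.73-fold lower (1.64 to 1.81), and was 2.15-fold lower in non-mitochondrial CPM. Calr had 124 CPM in PDL1/ATZ and 184 in isotype, 1.48-fold lower (1.40 to 1.57), just inside the 1.5-fold limit, and was 1.85-fold lower without mitochondrial UMIs. The 3 chaperones, each with ERSE in its promoter window, were lower to different degrees, with intervals that do not overlap.

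The isomerases were apart from each other. Pdia4 had 17.6 CPM in PDL1/ATZ and 27.8 in isotype, 1.58-fold lower (1.35 to 1.84). Pdia6, which holds ERSE as Hspa5 does, had 31.6 CPM in PDL1/ATZ and 35.7 in isotype, 1.13-fold lower (1.0002 to 1.28). Over all cells Pdia4, which has no ERSE match in its window, was lower than Pdia6 relative to isotype, with intervals that do not overlap. In cells with endothelial markers, a class described below, the ratios were alike, 0.916 (0.719 to 1.17) for Pdia4 and 0.902 (0.748 to 1.09) for Pdia6. In cells with fibroblast markers they were 0.453 (0.210 to 0.872) and 1.12 (0.720 to 1.68). The part of ERSE in these ratios was not tested.

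Of the transcription factors, Ddit3 had 34.9 CPM in PDL1/ATZ and 45.6 in isotype, 1.30-fold lower (1.17 to 1.46). Xbp1 had 47.1 CPM in PDL1/ATZ and 54.4 in isotype, 1.15-fold lower (1.04 to 1.27). Atf4 had 74.0 CPM in PDL1/ATZ and 77.5 in isotype, a ratio of 0.955 (0.881 to 1.04). Over all cells the 3 factors therefore lay closer to isotype than Hspa5 and Hsp90b1 did. In cells with few markers Ddit3 had a ratio of 0.549 (0.361 to 0.822) and Hsp90b1 0.670 (0.571 to 0.785), with intervals that overlap.

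Herpud1 had 110.0 CPM in PDL1/ATZ and 127 in isotype, 1.16-fold lower (1.08 to 1.23). Dnajb9 had 32.9 CPM in PDL1/ATZ and 30.1 in isotype, a ratio of 1.09 (0.963 to 1.24), and it was the only one of the 10 above 1. Its direction depended on the scaling: the ratio was 0.876 without mitochondrial UMIs and 0.737 on totals scaled by trimmed means of M values (TMM). Without mitochondrial UMIs all 10 genes were lower in PDL1/ATZ and 5 were 1.5-fold lower, against 10.7% of genes lower and 30.2% higher by that size. With TMM scaling, which sets the median gene at a log2 ratio of 0.01, 9 of 10 were 1.5-fold lower, against 17.6% of genes lower and 18.2% higher. The lower mitochondrial share and the lower cardiomyocyte markers (all 10 lower, 8 of them by 1.5-fold) stand beside these differences, and their part in them was not tested. With 1 library per group, treatment cannot be told apart from other differences between the libraries, such as those in barcodes and symbols read.

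**Figure D2:**
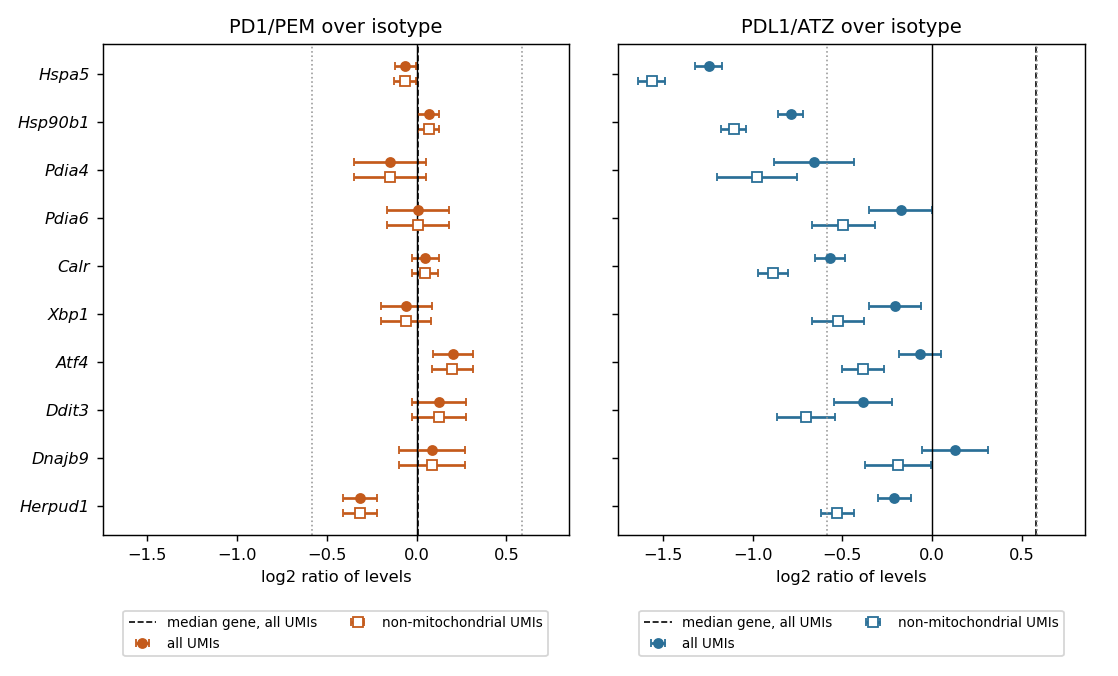
Log2 ratios of the 10 genes, PD1/PEM over isotype (left) and PDL1/ATZ over isotype (right), with 95% counting intervals, scaled by all UMIs (filled) and by non-mitochondrial UMIs (open); the dashed line is the median gene, the dotted lines mark 1.5-fold. On the left all 10 lie between the dotted lines, and on the right Hspa5, Hsp90b1 and Pdia4 lie past the lower one on both scales, with all 10 left of the median gene.

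Ratios between 2 of the genes within a library need no library total and are set side by side only across libraries. Hspa5 UMIs per Hsp90b1 UMI were 0.971 (0.930 to 1.01) in PD1/PEM, 0.774 (0.729 to 0.822) in PDL1/ATZ and 1.06 (1.02 to 1.11) in isotype. Hspa5 per Calr was 1.51 in PD1/PEM, 1.02 in PDL1/ATZ and 1.63 in isotype. Hspa5 per Herpud1 was 2.80 (2.64 to 2.97) in PD1/PEM, 1.15 (1.07 to 1.23) in PDL1/ATZ and 2.35 (2.23 to 2.47) in isotype. In all 3 ratios PDL1/ATZ had the lowest value, with intervals apart from those of both other libraries. Hspa5 per Dnajb9 was 8.96 in PD1/PEM, 3.84 in PDL1/ATZ and 9.94 in isotype. Ddit3 per Atf4 was 0.558 (0.509 to 0.611) in PD1/PEM, 0.472 (0.425 to 0.524) in PDL1/ATZ and 0.588 (0.537 to 0.644) in isotype, so that PDL1/ATZ again had the lowest value, with an interval that overlaps that of PD1/PEM. Pdia4 per Pdia6 was 0.699 (0.610 to 0.799), 0.557 (0.478 to 0.649) and 0.779 (0.688 to 0.880) in PD1/PEM, PDL1/ATZ and isotype.

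As a share of the UMIs of the 10 genes, Hspa5 made up 24.7% in PD1/PEM, 16.6% in PDL1/ATZ and 25.7% in isotype. Herpud1 made up 8.84% in PD1/PEM, 14.4% in PDL1/ATZ and 10.9% in isotype. Calr kept close shares of 16.4%, 16.3% and 15.8% in the same order, while Atf4 had 7.69%, 9.72% and 6.66%. Within the group, then, PDL1/ATZ held less Hspa5 and Hsp90b1 and more Herpud1, Atf4, Xbp1, Ddit3, Pdia6 and Dnajb9 than isotype did, and a Calr share whose interval overlaps that of isotype.

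**Figure D3:**
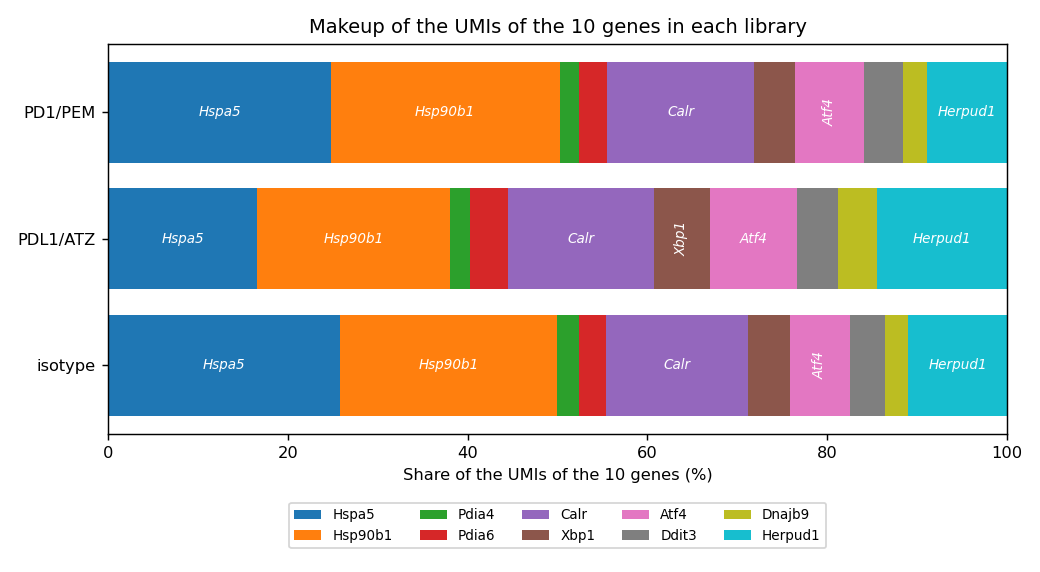
Share of each gene in the summed UMIs of the 10 genes (percent, stacked to 100) in the PD1/PEM, PDL1/ATZ and isotype libraries. The Hspa5 share is 16.6% in PDL1/ATZ against 25.7% in isotype, and the Herpud1 share 14.4% against 10.9%.

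Other genes of the pathway were taken from lists chosen with earlier results of these data known. Of 18 further chaperones and folding enzymes, all measured, none was 1.5-fold apart between PD1/PEM and isotype, and the list had a median log2 ratio of -0.08, beside 0.01 for all genes. The furthest was Txndc5, a disulfide isomerase of the thioredoxin family, with 28.3 CPM in PD1/PEM and 36.5 in isotype, 1.29-fold lower (1.14 to 1.46). Sdf2l1, Hyou1 and Erp44 followed at ratios of 0.779, 0.817 and 0.840. In PDL1/ATZ against isotype 3 of the 18 were 1.5-fold higher and 1 lower, where 49.6% of all genes were higher and 5.32% lower, and the median log2 ratio was -0.01, beside 0.58 for all genes. With TMM scaling 0 of the 18 were higher and 9 lower, where 18.2% of genes were higher and 17.6% lower, and the list median was -0.58. Hyou1, the lumenal Hsp110 that exchanges the nucleotide of BiP, had 6.27 CPM in PDL1/ATZ and 11.7 in isotype, 1.86-fold lower (1.45 to 2.41), or 2.76-fold lower with TMM scaling. Pdia5 was 1.82-fold, Ero1lb (the oxidase of disulfide isomerases, under its older symbol) 1.62-fold and Fkbp2 1.53-fold higher, with TMM-scaled ratios of 1.23, 1.09 and 1.03.

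Of 14 genes of degradation and translocation, 13 were measured, and none was 1.5-fold apart between PD1/PEM and isotype. Derl1, a channel of the degradation complex, was 1.32-fold lower (1.16 to 1.51). Sec61a1 and Sec61b, subunits of the translocon, had ratios of 1.25 (1.10 to 1.41) and 1.14 (0.981 to 1.33). In PDL1/ATZ against isotype 3 of 13 were higher, a smaller share than the 49.6% of all genes, and none was lower: Sec61b was 1.87-fold, Derl2 1.79-fold and Sec61a1 1.63-fold higher, with Sec61g at 1.49-fold. The list median was 0.46, beside 0.58 for all genes. With TMM scaling these 4 had ratios of 1.27, 1.21, 1.10 and 1.01. On that scale 0 of 13 were higher and 3 lower, beside 18.2% and 17.6% of all genes.

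None of the 9 sensors and their proteases was 1.5-fold apart between PD1/PEM and isotype. Creb3l2 had a ratio of 1.16, the site-1 protease gene Mbtps1 1.14, the IRE1 gene Ern1 1.13 and Atf6b 0.884. In PDL1/ATZ against isotype Eif2ak3, which encodes PERK, had 43.1 CPM in PDL1/ATZ and 21.0 in isotype, 2.05-fold higher (1.80 to 2.34). The protease genes Mbtps2 and Mbtps1 were 2.01-fold and 1.52-fold higher, and Atf6, the sensor they cleave, was 1.36-fold lower (1.27 to 1.45). Eif2ak3, Mbtps2 and Mbtps1 were the 3 of 9 that were 1.5-fold higher, where 49.6% of all genes were, and the list median was 0.09, beside 0.58. With TMM scaling the ratio was 1.38 for Eif2ak3, 1.36 for Mbtps2 and 1.03 for Mbtps1, and Atf6 was 2.01-fold lower. On that scale 0 of 9 were 1.5-fold higher and 3 lower, beside 18.2% and 17.6% of all genes.

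Of 20 genes of the integrated stress response, the branch of ATF4, 18 were measured. Between PD1/PEM and isotype 1 was 1.5-fold higher: Trib3, a pseudokinase that CHOP induces, had 6.03 CPM in PD1/PEM and 3.60 in isotype, 1.68-fold higher (1.19 to 2.36) on 89 and 60 UMIs. Atf3 had 278 CPM in PD1/PEM and 193 in isotype, 1.44-fold higher (1.37 to 1.504). Ppp1r15b and Ppp1r15a, the regulatory subunits of the eIF2-alpha phosphatase, were 1.38-fold and 1.31-fold higher. Of the 18 genes, 7 were above 1 and 11 below it, and the median log2 ratio was -0.05. Atf3 and Ppp1r15a are also early response genes, and Egr1, Btg2 and Ier2, used as markers of that response to digestion, were 2.31-fold, 2.37-fold and 1.87-fold higher in the same library. Their part in the ratios of Atf4, Atf3 and Ppp1r15a was not tested.

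In PDL1/ATZ against isotype 2 of the 18 were higher and 2 lower, beside 49.6% and 5.32% of all genes, with a list median of 0.20 beside 0.58. With TMM scaling 2 were higher and 5 lower, beside 18.2% and 17.6%. Slc7a11, the cystine transporter, was 2.82-fold higher (2.39 to 3.33) and Trib3 2.50-fold higher (1.83 to 3.44). Cebpb, the partner of CHOP, had 29.4 CPM in PDL1/ATZ and 78.7 in isotype, 2.67-fold lower (2.40 to 2.98), and Gdf15 was 1.63-fold lower (1.06 to 2.55) on 35 and 63 UMIs. The TMM-scaled ratios were 1.90 for Slc7a11, 1.68 for Trib3, 0.253 for Cebpb and 0.413 for Gdf15.

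All 10 genes of receptor-mediated turnover and cell death at the endoplasmic reticulum were measured. None was 1.5-fold apart between PD1/PEM and isotype, with Bbc3 at 0.737 (0.548 to 0.987), Bcl2l11 at 1.27 (1.13 to 1.44), Bax at 1.22 and Retreg1 at 1.14. In PDL1/ATZ against isotype 4 were higher and 1 lower, beside 49.6% and 5.32% of all genes, with a list median of 0.50 beside 0.58. With TMM scaling 1 was higher and 2 were lower, beside 18.2% and 17.6% of all genes. Ccpg1, a receptor for turnover of the endoplasmic reticulum, had 63.5 CPM in PDL1/ATZ and 18.1 in isotype, 3.50-fold higher (3.08 to 4.001). Retreg1, another such receptor, had 53.7 CPM in PDL1/ATZ and 129 in isotype, 2.40-fold lower (2.21 to 2.60). Bax, a cell death gene, was 2.01-fold and Sec62 1.63-fold higher. The TMM-scaled ratios were 2.36 for Ccpg1, 0.282 for Retreg1, 1.36 for Bax and 1.10 for Sec62.

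Promoter windows with ERSE or ERSE-II belonged to 37 further symbols, of which 20 were measured. Between PD1/PEM and isotype none of the 20 was 1.5-fold apart, and their median log2 ratio was -0.01. In PDL1/ATZ against isotype 6 of 20 were higher and 1 lower, beside 49.6% and 5.32% of all genes, with a median of 0.42 beside 0.58. With TMM scaling 1 was higher and 4 were lower, beside 18.2% and 17.6% of all genes. Adcy3 was 2.25-fold, Spats2l 2.09-fold and Krtcap2 1.71-fold higher, with TMM-scaled ratios of 1.52, 1.41 and 1.15.

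Within the PD1/PEM and isotype libraries the cells fall on both sides of 25% mitochondrial UMIs, and the 10 genes could be compared between these cells. In PDL1/ATZ only 9 cells were over 25%, so no such values are given. In non-mitochondrial CPM, 8 of 10 genes in PD1/PEM and 9 of 10 in isotype were higher in cells over 25%, where 62.4% and 61.6% of all genes were. Intervals lay wholly above 1 for 6 of 10 genes in PD1/PEM and 6 of 10 in isotype, against 16.5% and 14.4% of all genes. These shares are not of like depth, because intervals narrow with more UMIs. The 10 genes had 371 to 4990 UMIs in these libraries, and all genes with at least 50 UMIs were counted.

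Hspa5 had 410.0 and 342 non-mitochondrial CPM in PD1/PEM cells over and at most 25%, a ratio of 1.20 (1.12 to 1.28), and in isotype cells 423 and 366, a ratio of 1.16 (1.09 to 1.23). Calr had ratios of 1.24 (1.14 to 1.34) in PD1/PEM and 1.19 (1.10 to 1.29) in isotype, and Herpud1 1.25 and 1.21. Hsp90b1 was close to even, at 1.06 (0.991 to 1.13) in PD1/PEM and 1.05 (0.986 to 1.12) in isotype. Ddit3 was on the other side, at 0.958 (0.821 to 1.12) in PD1/PEM and 0.845 (0.727 to 0.983) in isotype. Ddit3 was the one gene below 1 in both libraries, and Pdia4 lay on opposite sides of 1, at 0.929 in PD1/PEM and 1.07 in isotype, with intervals that hold it.

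**Figure D4:**
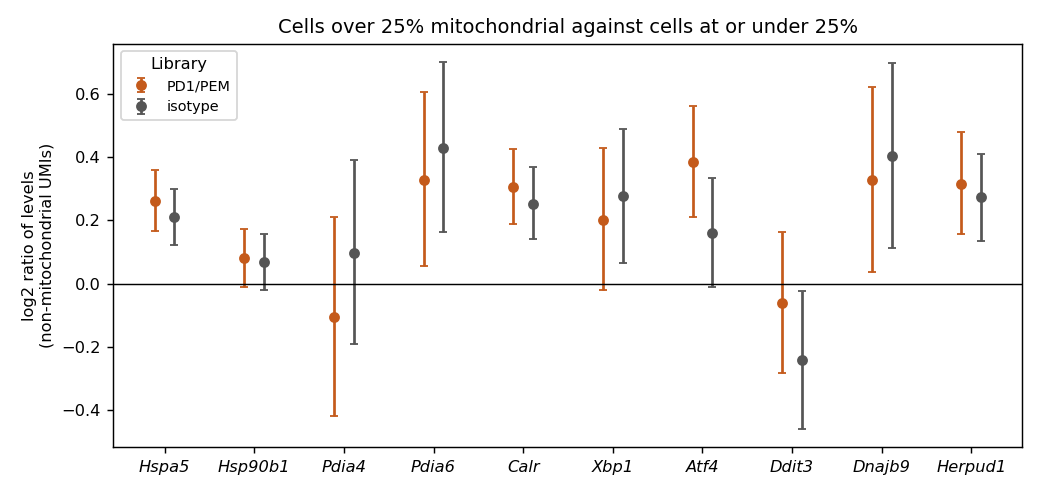
Log2 ratio of each gene's level in non-mitochondrial CPM in cells over 25% mitochondrial against cells at or under 25%, in the PD1/PEM and isotype libraries, with 95% counting intervals. Hspa5, Pdia6, Calr, Dnajb9 and Herpud1 lie above 0 in both libraries with intervals that exclude it, and Ddit3 lies below 0 in both.

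Cells were assigned to classes by marker genes, without any of the 10 genes, and the summed UMIs of each class were compared with those of cells with few markers of any class, with the 3 libraries as replicates. Library was a term of the fit, so the p-values measure how much class differences vary between these 3 pooled libraries. The libraries are of 3 different groups, and all classes shared 1 fit. With 3 markers per class the classes separated poorly: a second set of fibroblast markers was only 1.14-fold, 1.49-fold and 1.26-fold above the cells with few markers in PD1/PEM, PDL1/ATZ and isotype, and that of endothelial markers 1.09-fold, 1.24-fold and 1.10-fold. No gene of the 10 passed a 5% false discovery rate in edgeR's quasi-likelihood test in the fibroblast, endothelial, pericyte, smooth muscle or macrophage class. Of 6735 genes tested, 0.341% were called higher and 0.0148% lower in the fibroblast class, 0.312% and 0.0148% in the endothelial class, 1.51% and 0.0445% in the pericyte class, 1.72% and 0.104% in the smooth muscle class, and 3.25% and 0.356% in the macrophage class. At an unadjusted p under 0.05 there were 2 of the 10 in the endothelial class, 1 each in the fibroblast, pericyte and macrophage classes and 0 in the smooth muscle class, with the same counts in DESeq2. At that p the share of all genes was 7.2% in the fibroblast, 9.18% in the endothelial, 9.38% in the pericyte, 9.52% in the smooth muscle and 12.8% in the macrophage class with edgeR, and 3.95%, 4.23%, 7.84%, 9.04% and 11.5% with DESeq2. The lowest adjusted p was 0.374, for Hspa5 in the macrophage class, and it lay between 0.165 and 0.515 over the alternatives.

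A stricter rule, added after these classes had been seen, took cells whose summed marker UMIs exceeded a draw from the profile of their own library. It found 68 fibroblast-marker cells in PD1/PEM, 39 in PDL1/ATZ and 68 in isotype, 36, 81 and 37 macrophage-marker cells, 16, 44 and 11 pericyte-marker cells, and 27, 41 and 24 smooth muscle-marker cells. The second marker set was 2.86-fold, 2.72-fold and 4.10-fold above the remaining cells for fibroblasts, and 5.57-fold, 8.43-fold and 5.04-fold for macrophages. Endothelial cells were too few under this rule, with 6, 20 and 11. The 3-marker rule gave 2801, 5316 and 2646, so the low counts belong to the stricter rule and are no measure of endothelial cells in the libraries. No lymphocyte-marker cell was found. The fibroblast-marker cells were deeper than the remaining cells. Their median was 3321 UMIs against 1986 in PD1/PEM, 2164 against 1000 in PDL1/ATZ and 2220 against 1522 in isotype.

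Of the 10 genes, 5 passed the filter on low counts: Hspa5, Hsp90b1, Calr, Atf4 and Herpud1. In edgeR's quasi-likelihood test over 2899 genes, Calr rose in fibroblast-marker cells, by 0.67 ± 0.19 on the log2 scale (SE, 3 libraries, adjusted p = 0.00893), where 9.11% of genes were called higher and 4.52% lower. At an unadjusted p under 0.05 there were 2 of the 5 genes with edgeR and 1 with DESeq2, where 25.6% and 21.8% of all genes were under it. Calr had 278 CPM in fibroblast-marker cells and 189 in the remaining cells of PD1/PEM, 195 and 125 in PDL1/ATZ, and 325 and 182 in isotype, so it was higher in all 3 libraries. The call was lost in 3 alternatives: with edgeR the adjusted p was 0.199 without predicted doublets, 0.243 without isotype and 0.149 without PD1/PEM, at log2 differences of 0.48, 0.54 and 0.67. Without PDL1/ATZ the call was kept, at a log2 difference of 0.64 (edgeR adjusted p = 0.0114). Hsp90b1 had a log2 difference of 0.36 in the same cells (edgeR adjusted p = 0.192) and Hspa5 0.09 (edgeR adjusted p = 0.851). By the 3-marker rule Calr had 189.9, 136 and 194 CPM in the fibroblast class of PD1/PEM, PDL1/ATZ and isotype. The cells with few markers had 241, 128 and 179, so by that rule Calr was lower in the fibroblast class of PD1/PEM and slightly higher in the other libraries.

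None of the 5 genes passed in macrophage-marker cells, where 6.45% of genes were called higher and 2.93% lower, in pericyte-marker cells (4.42% and 2.66%) or in smooth muscle-marker cells (5.28% and 1.35%). At an unadjusted p under 0.05 the counts with edgeR were 0, 1 and 0, and with DESeq2 0, 0 and 0, where 20.7%, 16.6% and 17% of all genes were under it with edgeR and 16.5%, 14.7% and 14.1% with DESeq2. Calr had 234.9, 114 and 248 CPM in macrophage-marker cells of PD1/PEM, PDL1/ATZ and isotype, with a log2 difference of 0.21 from the remaining cells (edgeR adjusted p = 0.630). In pericyte-marker cells it had a log2 difference of -0.70 (edgeR adjusted p = 0.272), on 9, 6 and 3 UMIs. Pdia4, which was not tested, had 11, 1 and 10 UMIs in fibroblast-marker cells.

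**Figure D5:**
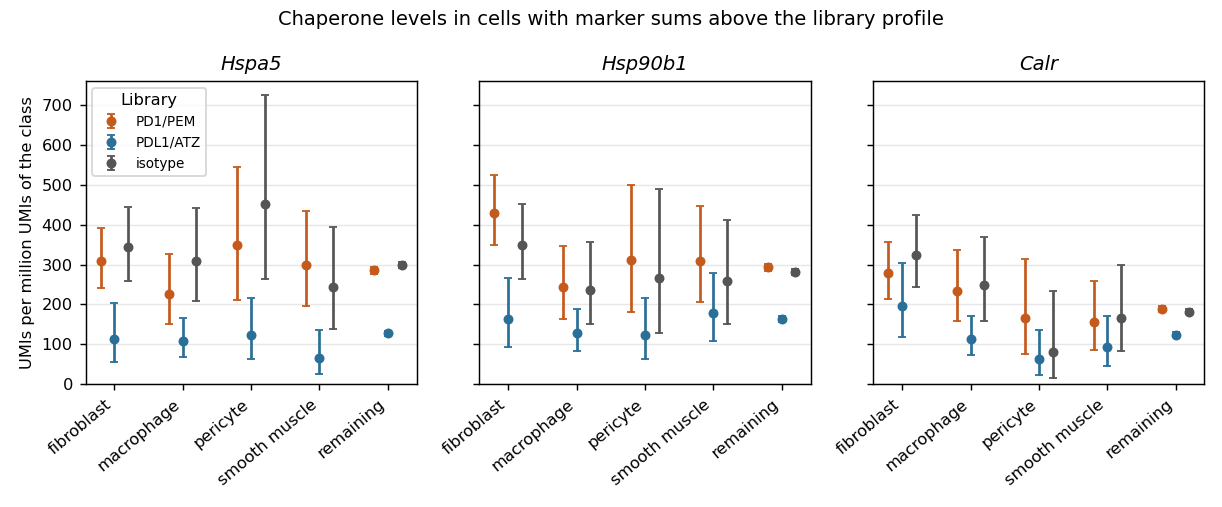
Levels of Hspa5, Hsp90b1 and Calr in CPM in fibroblast-, macrophage-, pericyte- and smooth muscle-marker cells and in the remaining cells of the PD1/PEM, PDL1/ATZ and isotype libraries, with 95% Poisson intervals for counting error. Hspa5 is lower in PDL1/ATZ than in isotype in every class, from 65.5 to 127 against 243 to 453 CPM.

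Inside each of these stricter classes Hspa5 was lower in PDL1/ATZ than in isotype. In fibroblast-marker cells it had 113 CPM in PDL1/ATZ and 343 in isotype, a ratio of 0.330 (0.156 to 0.636). In macrophage-marker cells it had 109 CPM in PDL1/ATZ and 309.8 in isotype, a ratio of 0.353 (0.194 to 0.633), and the ratios were 0.273 (0.119 to 0.607) in pericyte-marker and 0.270 (0.0939 to 0.694) in smooth muscle-marker cells. The smooth muscle value rests on 7 UMIs in PDL1/ATZ and 16 in isotype. In the remaining cells the ratio was 0.426 (0.404 to 0.450). With 3 markers per class the ratio was 0.332 in the fibroblast, 0.387 in the endothelial, 0.391 in the pericyte and 0.310 in the macrophage class. In the smooth muscle class of that rule it was 0.607 (0.337 to 1.04) on 18 and 61 UMIs, an interval that holds 1. The sum of the 10 genes had ratios of 0.616 in fibroblast-marker, 0.624 in macrophage-marker, 0.447 in pericyte-marker and 0.693 in smooth muscle-marker cells. Cardiomyocyte markers were 0.801% of UMIs in fibroblast-marker cells of PDL1/ATZ and 2.12% in those of isotype, and 0.781% and 2.34% in macrophage-marker cells, so RNA of other cells was read in these classes too, and its part in the Hspa5 ratio was not tested. For PD1/PEM over isotype the Hspa5 ratio was 0.901 (0.624 to 1.31) in fibroblast-marker and 0.732 (0.421 to 1.27) in macrophage-marker cells, with intervals that hold 1.

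The variance of a gene's UMIs over cells, divided by that of a draw in proportion to cell depth, was 1.04 in PD1/PEM, 1.04 in PDL1/ATZ and 1.06 in isotype for Hspa5, and between 0.983 and 1.08 for all 10 genes in all libraries. The same index was 3.23, 2.14 and 3.34 for Myh6, the cardiac myosin heavy chain, and 1.95 in PD1/PEM and 1.83 in PDL1/ATZ for the fibroblast gene Dcn. Genes of like level had median indices of 1.10, 1.06 and 1.07 beside Hspa5. C1qa, a macrophage gene with 1050.0 to 1107 UMIs in each library, had 1.17, 1.18 and 1.11, so the index was little above 1 even for a gene of few cells, and a subset of cells with a high unfolded protein response could be missed by it.

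The genes most like Hspa5 were ranked by Pearson's r of log2(CPM + 10) over 19 sums of a library and class, among 11885 genes. These sums share libraries, and the values fall into sets by library, so r is a description. The 10 most alike were Palld (r = 0.961), mt-Nd6 (0.961), Pde4dip, Nexn, mt-Nd2, mt-Nd1, mt-Nd4, mt-Co1, Mlip and mt-Atp6 (0.940), of which 6 are mitochondrially encoded and Palld, Nexn, Pde4dip and Mlip belong to muscle or its cytoskeleton. Palld had 606 CPM in PD1/PEM, 258 in PDL1/ATZ and 699 in isotype, and mt-Nd6 had 1085, 115 and 1069. With each library's mean removed r was 0.69 for Palld and 0.72 for mt-Nd6. Among the 10 genes described here Hsp90b1 ranked 22 (r = 0.920), Calr 80 (0.865) and Pdia4 172 (0.782), while Herpud1 (0.101) and Dnajb9 (0.032) ranked 3199 and 3833.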

How the data were processed

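Hearts of NOD/SCID mice were profiled in 3 libraries of 3 pooled hearts, 1 each for PD1/PEM, PDL1/ATZ and isotype. The deposited matrices hold counts, whole UMIs per gene and cell. Cell Ranger and Seurat, and the build mm10, are listed in the submitters' processing notes. The sources used here give no version, annotation, strand setting or cell filter. Groups were taken from the titles, which go against the treatment tags. The 10 genes, the pathway lists and the tests were chosen with earlier results of these data known.

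Counts were summed over all deposited cells and divided by the library's UMIs (14766346 to 16677883). Ratios have exact conditional binomial intervals and levels exact Poisson intervals at 95%, for counting error only. The low-count filter was 50 UMIs over both libraries, and a gene was counted as apart at 1.5-fold. A cell took a class with at least 3 of its markers and more than of any other class. Cells with fewer than 2 markers of every class were the cells with few markers. In the stricter classes, added later, the summed marker UMIs had a Poisson tail under 1e-04, with at least 3 markers of 1 class only, and all other cells without a class were the remaining cells. Sums per class and library, with at least 10 cells each, were tested with edgeR 4.0.16 (quasi-likelihood, TMM, library as a term, all classes in 1 fit, Benjamini-Hochberg over all genes tested); DESeq2 1.42.0 was an alternative. Doublets were scored against simulated doublets and the top 0.8% per 1000 cells were marked but kept, except in an alternative. The ratio intervals and the class test were tried on simulated data, and the doublet score was not. Positions are from GENCODE M21 (GRCm38) and promoters from RefSeq (GRCm38.p6), where all 10 genes matched.

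Named genes were the 10 genes, up to 4 genes per pathway list and comparison with the ratio furthest from 1 among genes with at least 50 UMIs, and the 10 genes most like Hspa5 over sums of at least 20000 UMIs. A gene of the degradation list that this rule names is not reported here. The genes with ERSE in their windows, the variance index, the ratios between genes, the TMM-scaled values of the lists and the values by mitochondrial share were added after the data were seen. Alternatives were the cells used, the library total, the filters, the size rule, the marker number, the tool and leaving out each library.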

Additional observations from a re-analysis of the deposited data

How the results depend on the processing

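Between PD1/PEM and isotype, 92 of 100 values of the 10 genes under 10 alternatives stayed within the counting interval of the value above, and 7 values of 6 genes crossed 1, none of them a gene whose interval excluded 1 other than Atf4 (0.928 in cells with few markers). The alternatives of at least 10 UMIs, at least 200 UMIs and 2-fold change only which genes are counted. They leave each ratio as it was, so in both comparisons their values lie within the interval by construction and show no stability. In cells with few markers 2 of the 10 genes were 1.5-fold lower, Pdia4 (0.631) and Herpud1 (0.633), where 11.9% of genes (607) were, and 496 genes were higher. The Pdia4 interval there, 0.240 to 1.41, holds 1. Genes higher and lower were 1925 and 1891 with at least 10 UMIs, 444 and 330 with at least 200 UMIs, and 127 and 67 at 2-fold. Between PDL1/ATZ and isotype, 63 of 100 values stayed within the interval, and 5 values crossed 1, of Dnajb9, Herpud1 and Pdia6. Without mitochondrial UMIs 5 of the 10 genes were lower, with 4676 genes higher and 1654 lower; with TMM scaling 9 were lower, with 2814 and 2728 genes; in cells with few markers 2883 genes were higher and 509 lower; with at least 200 UMIs 4965 were higher; at 2-fold 1 of the 10 was lower, with 3872 and 385 genes. Hspa5 stayed between 0.285 and 0.454 under all 10 alternatives. In the class test none of the genes tested, 8 to 10 of the 10, passed under any of the 11 alternatives. Among the stricter classes, chosen after the data were seen, Calr in fibroblast-marker cells kept its call with DESeq2, without TMM and without PDL1/ATZ, the count among the 5 genes tested that were higher was 0 without predicted doublets, and leaving out 1 library gave 0 to 1. The causes of these shifts were not tested. No paired analysis was possible because each treatment has 1 library. Low counts limit Pdia4, Pdia6, Dnajb9 and Ddit3 in the classes, where most had under 20 UMIs.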
